A study of Mus musculus with 2 samples.

Results

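Cytokines and chemokines are secreted signals through which a tumour cell acts on leukocytes, stromal cells and bone, and NF-kB is the transcription factor family that many of their genes answer to. The 40 genes described here are 27 secreted factors (13 interleukins, colony-stimulating factors and related cytokines, and 14 chemokines, of which Cxcl16 and Cx3cl1 are made membrane-anchored), the receptor Il1rl1, the prostaglandin enzymes Ptgs2 and Ptges, 6 NF-kB subunits and ankyrin-repeat inhibitors, the NF-kB target genes Tnfaip3 and Birc3, and the adhesion molecules Icam1 and Vcam1. They were picked by name, through the array's probe sets that carry exactly 1 gene symbol. Of the 40, 38 had such a probe set, with 64 probe sets between them, among 18194 genes in all. Il1rl1 and Nfkb1 are not analysed here.

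The samples were 1 array of MOS-J cells carrying human DKK1 and 1 array of MOS-J cells carrying a control vector. DKK1 is a secreted antagonist of canonical Wnt signalling, and MOS-J is an osteosarcoma line from the mouse. The labels name lentivirus for both vectors; the treatment text also gives a plasmid route, antibiotic selection of clones or stable lines, a red fluorescent mitochondrial label and a sort, and the labels do not say which of these applied to the profiled cells. With 1 array per group there is no replicate, no test and no p-value, and each difference below is that of these arrays.

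Resting NF-kB dimers are held in the cytoplasm by inhibitor proteins such as IkB-alpha, the product of Nfkbia. Signals from receptors for IL-1, TNF or microbial products lead to loss of the inhibitor, and the freed subunits bind kB sites in promoters, including those of chemokine genes and of Nfkbia itself, which closes a feedback loop. In bone and its tumours, IL-6-type cytokines, prostaglandin E2 and the CSF1 receptor ligands act between osteoblast-lineage cells, osteoclasts and macrophages.

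Promoter windows from RefSeq (build GRCm38.p6, 250 bases before to 50 after an annotated start) were found for 28 of the 38 genes, in 33 windows, and were searched on both strands for the kB consensus motif. It lay in 14 of the 33 windows and in 12 of the 28 genes, against 8.46% of all 32851 windows in the table. The following 100-base stretches show such matches, which resemble each other because the same motif was searched for throughout. They are from Il6 and Lif, with lower signals in DKK1 cells, Cxcl1 and Cxcl10, with small differences, Cxcl2, with dim signals, and Nfkbia, the inhibitor. Capitals mark the kB matches, and all stretches run 5′ to 3′ on the gene's strand and end before the annotated start.
Il6: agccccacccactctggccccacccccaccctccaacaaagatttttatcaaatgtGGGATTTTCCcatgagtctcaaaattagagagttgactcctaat
Lif: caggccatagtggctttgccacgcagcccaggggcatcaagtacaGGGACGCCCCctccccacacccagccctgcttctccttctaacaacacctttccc
Cxcl1: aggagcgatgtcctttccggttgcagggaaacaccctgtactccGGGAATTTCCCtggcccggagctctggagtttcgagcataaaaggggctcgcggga
Cxcl2: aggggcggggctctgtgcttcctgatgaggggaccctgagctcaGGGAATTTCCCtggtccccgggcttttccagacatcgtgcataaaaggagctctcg
Cxcl10: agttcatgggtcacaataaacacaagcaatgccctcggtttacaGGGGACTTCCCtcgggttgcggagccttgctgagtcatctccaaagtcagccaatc
Nfkbia: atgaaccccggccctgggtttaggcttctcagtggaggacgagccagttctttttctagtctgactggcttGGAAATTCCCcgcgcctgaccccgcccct
The stretches are chr5:30013014-30013113 (+ strand) for Il6, chr11:4257345-4257444 (+ strand) for Lif, chr5:90891130-90891229 (+ strand) for Cxcl1, chr5:90903758-90903857 (+ strand) for Cxcl2, chr5:92348938-92349037 (- strand) for Cxcl10 and chr12:55492648-55492747 (- strand) for Nfkbia. The match began 44 bases before the start in Il6, 178 in Lif and 29 in Nfkbia. In Cxcl1, Cxcl2 and Cxcl10 the capitals cover a pair of matches that overlap each other, and Cxcl10 has 1 further match outside the stretch. A match describes letters in a window and shows no binding, and its relation to the signals was not tested.

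The same windows were searched for 3 other motifs on both strands. TTGCNNAA, a form of the C/EBP site, lay in 4 of the 33 member windows, those of Il6, Il33, Ptgs2 and Csf2. That share, 12.1%, is close to the 10.8% of all windows. It is shown for the 3 of these genes with lower signals in DKK1 cells, with the match in capitals. Lif and Ccl8, also called lower, had windows without this match.
Il6: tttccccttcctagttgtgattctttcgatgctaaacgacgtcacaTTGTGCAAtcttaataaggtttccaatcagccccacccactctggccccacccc
Il33: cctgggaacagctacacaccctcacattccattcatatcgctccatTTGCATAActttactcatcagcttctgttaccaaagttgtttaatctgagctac
Ptgs2: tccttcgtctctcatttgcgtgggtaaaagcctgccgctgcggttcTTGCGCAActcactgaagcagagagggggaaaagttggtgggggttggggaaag
These stretches are chr5:30012940-30013039 (+ strand) for Il6, chr19:29945659-29945758 (+ strand) for Il33 and chr1:150099916-150100015 (+ strand) for Ptgs2. Of the 2 Il33 windows the table holds, 1 had the match. TGANTCA, the AP-1 site, was found in 8 member genes (Ccl9, Cxcl10, Il11, Il1a, Il6, Lif, Nfkb2 and Tnfaip3) and in 7.81% of all windows. The core of the interferon-stimulated response element (GAAA, any 2 bases, GAAA) was found in Cxcl10 and Cxcl14 and in 3.44% of all windows. No match of 1 motif overlapped a match of another in these windows.

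Of the 38 genes, 28 were measured, meaning that the mean of the 2 signals of at least 1 probe set reached 71.3, the median of such means over the array. Signals are MAS5 intensities on a linear scale, and a difference is log2(signal + 16.6) in DKK1 cells minus log2(signal + 16.6) in control cells, averaged over a gene's measured probe sets. Differences of at least 1 (2-fold), with every measured probe set of the gene on the same side of 0, count here as calls. By this rule 5 of the 28 were higher in DKK1 cells (Il15, Birc3, Il11, Il18 and Vcam1) and 6 were lower (Il33, Il6, Ptgs2, Ccl8, Ccl5 and Lif). Over all 11058 measured genes, 11.7% were called higher and 6.91% lower, 18.6% in all. The calls among these genes depended on scaling in the higher direction: 7 were higher and 6 lower when the arrays were scaled on hybridisation spike-ins (RNAs added after labelling, median log2 ratio −0.37), where 21.6% of all genes were higher. On poly-A spike-ins, which go through labelling (median 0.64), 1 was higher and 8 were lower, where 23.1% of all genes were lower. Il33, Il6, Ptgs2, Ccl8 and Ccl5 each kept their call under all 13 alternative settings tried. Il33, Il11 and Cxcl16 had 1 signal below the filter and reached it through the other array alone, so for these genes being measured and differing are linked.

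**Figure D1:**
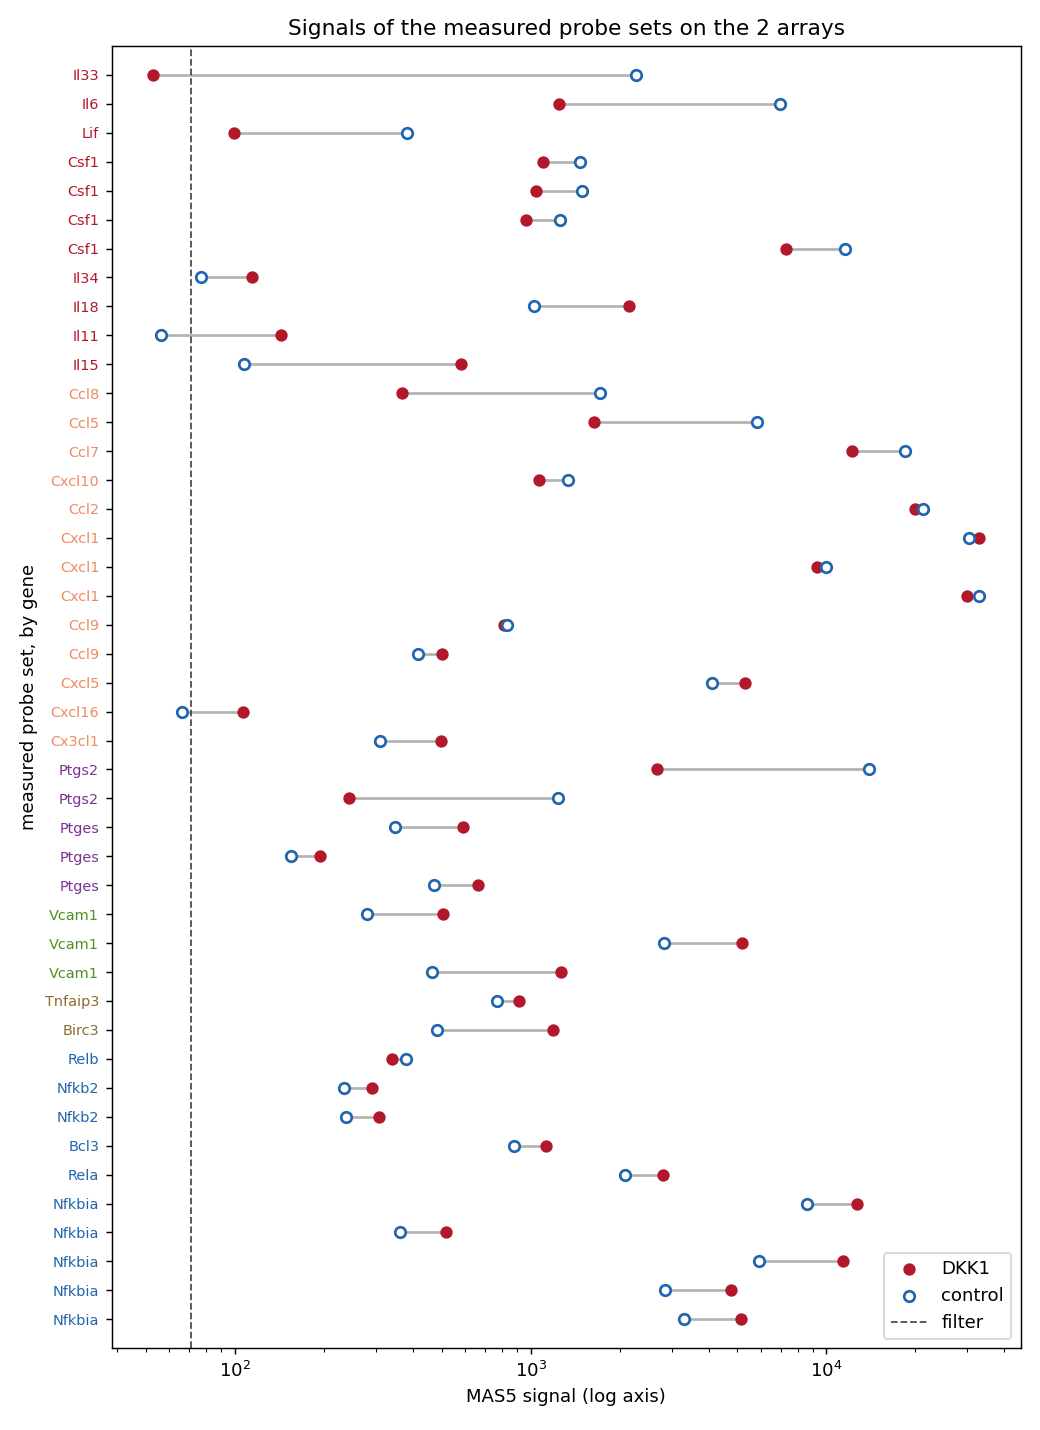
MAS5 signals (log axis) of the measured probe sets on the DKK1 array (filled) and the control array (open), 1 line per probe set, with gene names coloured by role (from the top: interleukins and colony-stimulating factors, chemokines, prostaglandin enzymes, adhesion molecules, feedback and survival genes, NF-kB proteins and inhibitors) and the filter of 71.3 dashed. The long lines with the DKK1 point on the left are Il33, Il6, Lif, Ccl8, Ccl5 and both Ptgs2 probe sets, and levels of different probe sets are not comparable with each other.

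The IL-6 family went in both directions. These cytokines all signal through the shared receptor subunit gp130, encoded by Il6st. Il6 had a signal of 1247 in DKK1 cells, against 6944 in control cells, a difference of −2.46 or 5.51-fold lower. Lif, leukaemia inhibitory factor, had 99.5 in DKK1 cells and 380 in control cells on its measured probe set, a difference of −1.77. Its dim second probe set ran the other way, with 35.6 in DKK1 cells and 7.78 in control cells, and with that probe set included the difference was −0.34 and the call ended. Il11, another member of the family, had 143 in DKK1 cells and 56.3 in control cells, a difference of 1.13 and at least 2.01-fold with the dim signal raised to the filter. The call of Il11 ended with a larger pseudocount (0.75), quantile normalization (0.85), loess (0.78) and poly-A scaling (0.57).

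The IL-1 family split likewise. Il33, a nuclear cytokine released by damaged cells, had a signal of 52.9 in DKK1 cells, against 2275 in control cells, a difference of −5.04 and at least 31.9-fold lower. It rests on 1 probe set. Il18, a cytokine that is activated by caspase cleavage, had 2154 in DKK1 cells and 1026 in control cells, a difference of 1.06, which fell under 2-fold with median centring (0.94) and poly-A scaling (0.42). Il1a had 2.06 in DKK1 cells and 12.5 in control cells, and Il1b 70.5 and 54.2 in the same order, all below the filter. No difference is read from these dim signals.

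Il15, which sustains natural killer cells and memory T cells, was the furthest above 0 of all 28 on the deposited scaling. Its signal was 579 in DKK1 cells and 107 in control cells, a difference of 2.27 or 4.81-fold higher. The call was kept under the 12 alternatives in which Il15 was measured, with differences of 1.65 to 2.63. Csf1 and Il34 encode the ligands of the CSF1 receptor, on which macrophages and osteoclasts depend. The 4 Csf1 probe sets were all lower in DKK1 cells, by less than 2-fold, with signals of 966 to 7311 in DKK1 cells and 1260 to 11583 in control cells, a mean difference of −0.49 (SD 0.13 between probe sets). Il34 had 114 in DKK1 cells and 76.6 in control cells, a difference of 0.48. Neither was called, though Csf1 was lower on poly-A scaling (−1.12). Csf2, Csf3 and Tnf had signals of 5.51 to 17.4 in DKK1 cells and 7.27 to 23.7 in control cells, below the filter.

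Of the 14 chemokine genes 10 were measured, and 2 of these were called, both lower in DKK1 cells. That share, 20.0%, is close to the 18.6% of all genes. Ccl8, a C-C chemokine of the monocyte chemoattractant group, had 368 in DKK1 cells and 1710 in control cells, a difference of −2.17 or 4.49-fold lower. Ccl5, which attracts T cells and monocytes, had 1641 in DKK1 cells and 5817 in control cells, a difference of −1.81 or 3.52-fold lower. Each rests on 1 probe set.

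The other C-C chemokines differed less. Ccl2, the main monocyte attractant of the group, had 19940 in DKK1 cells and 21149 in control cells, a difference of −0.08. Its relative Ccl7 had 12234 in DKK1 cells and 18394 in control cells, a difference of −0.59, which reached 2-fold on poly-A scaling (−1.23). Ccl9, a mouse chemokine that binds CCR1, had 815 and 502 in DKK1 cells and 831 and 417 in control cells on its 2 probe sets, a mean difference of 0.11 (SD 0.20). In gene order on chromosome 11, Ccl2 and Ccl7 are adjacent in the RefSeq table and Ccl8 follows after 2 further protein-coding genes, so the 3 differences of −0.08, −0.59 and −2.17 come from neighbours. Ccl5 (−1.81) and Ccl9 (0.11) are also adjacent, on the same chromosome.

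The neutrophil attractants that signal through CXCR2 gave small differences where measured. The 3 Cxcl1 probe sets had signals of 32866, 9299 and 30000 in DKK1 cells and 30412, 9937 and 32792 in control cells. Their mean difference was −0.04 (SD 0.13), and its sign turned under 5 of the 13 alternatives. Cxcl5 had 5309 in DKK1 cells and 4095 in control cells, a difference of 0.37. Cxcl2, the gene next to Cxcl1 on chromosome 5, was below the filter, with 22.5 in DKK1 cells and 36.1 in control cells. Its printed stretch carries the same capital letters as that of Cxcl1. Cxcl10, an interferon-induced ligand of CXCR3, had 1068 in DKK1 cells and 1339 in control cells, a difference of −0.32. The membrane-anchored chemokines were Cx3cl1, with 498 in DKK1 cells and 309 in control cells (0.66), and Cxcl16, with 106 and 66.2 in the same order (0.57). Neither was called as deposited, and Cx3cl1 passed 2-fold on hybridisation scaling (1.02). Over the 10 measured genes no 2-fold higher chemokine was found on the deposited scaling.

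Cxcl12, the ligand of CXCR4, had 3 probe sets with signals of 2.15 to 14.6 in DKK1 cells and 6.34 to 19.2 in control cells. Ccl20 had 8.35 in DKK1 cells and 14.6 in control cells, and the brighter Cxcl14 probe set had 14.5 and 48.8 in the same order. With Il1a, Il1b, Csf2, Csf3, Tnf, Cxcl2 and Icam1 these make up the 10 genes below the filter, whose 13 probe sets ranged from 1.73 to 70.5 in DKK1 cells and 1.27 to 54.2 in control cells. The table used here has no detection calls, so these signals show neither presence nor absence of the transcripts.

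The prostaglandin enzymes lie in sequence in 1 pathway, and 1 of them was called. Ptgs2, the inducible cyclooxygenase COX-2, makes the precursor that Ptges, the microsomal prostaglandin E synthase, turns into prostaglandin E2. The 2 Ptgs2 probe sets had 2680 and 242 in DKK1 cells and 13961 and 1240 in control cells, a mean difference of −2.33 or 5.01-fold lower, with an SD of 0.07 between them. The 3 Ptges probe sets had 592, 194 and 661 in DKK1 cells and 347, 155 and 471 in control cells, a mean difference of 0.51 (SD 0.23), which was not called and was −0.10 on poly-A scaling.

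**Figure D2:**
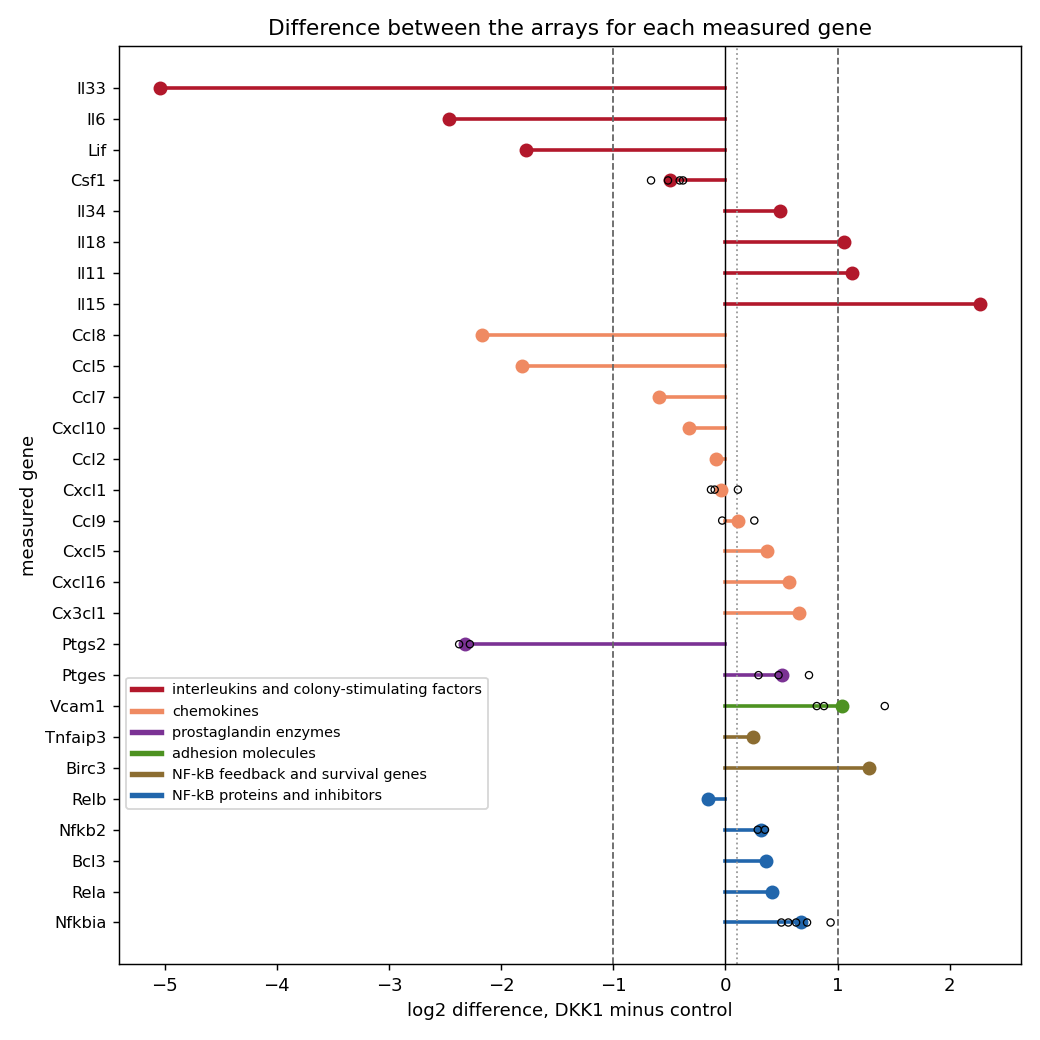
Log2 difference (DKK1 minus control) of each of the 28 measured genes, coloured by role, with open circles for single probe sets where a gene has several, dashed lines at 2-fold and a dotted line at the all-gene median of 0.10. Interleukins run from −5.04 for Il33 to 2.27 for Il15, while the NF-kB proteins and inhibitors at the bottom all lie between −0.16 and 0.67.

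The NF-kB proteins and inhibitors were much closer together. All 5 analysed genes were measured, and 0 were called in either direction, a count too small to set against the 18.6% of all genes. Rela, which encodes the transactivating subunit p65, had 2800 in DKK1 cells and 2089 in control cells, a difference of 0.42. Nfkb2, the precursor of p52 in the non-canonical pathway, had 290 and 307 in DKK1 cells and 235 and 237 in control cells (0.32, SD 0.05 between 2 probe sets). Its partner Relb had 339 in DKK1 cells and 380 in control cells, a difference of −0.16. Bcl3, a nuclear IkB protein that binds p50 and p52 dimers, had 1128 in DKK1 cells and 876 in control cells, a difference of 0.36.

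Nfkbia differed furthest in this group. Its 5 probe sets had signals of 518 to 12734 in DKK1 cells and 362 to 8624 in control cells, and all 5 were higher in DKK1 cells. The mean difference was 0.67 (SD 0.17), under 2-fold, and it was 1.04 on hybridisation scaling and 0.04 on poly-A scaling. Nfkbia and Il6 both have a kB match within the 100 bases before the start, and their differences were 0.67 and −2.46. Other measured genes with such a match were Nfkb2 (0.32), Tnfaip3 (0.25), Ccl9 (0.11) and Cxcl1 (−0.04). The relation of these matches to the differences was not tested.

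Among genes that NF-kB induces, Tnfaip3, which encodes the ubiquitin-editing inhibitor A20, had 915 in DKK1 cells and 767 in control cells, a difference of 0.25. Its dim second probe set ran the other way (2.30 and 6.97 in the same order), and without the filter the difference was −0.03. Birc3, which encodes the ubiquitin ligase cIAP2, had 1191 in DKK1 cells and 481 in control cells, a difference of 1.28 or 2.42-fold higher. The second Birc3 probe set, with 98.1 in DKK1 cells and 6.47 in control cells, was below the filter and ran the same way. The call of Birc3 ended on poly-A scaling (0.65). Vcam1, an adhesion molecule for leukocyte integrins, had 506, 5198 and 1266 in DKK1 cells and 280, 2818 and 462 in control cells on its 3 probe sets. Its mean difference was 1.04 (SD 0.33), barely past 2-fold, and the call ended under 5 of the 13 alternatives (0.41 to 0.99). Icam1 had 5.30 in DKK1 cells and 5.18 in control cells, both below the filter.

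Set side by side, the 18 measured secreted factors had differences of −5.04 to 2.27 with 3 higher, 5 lower and a median of −0.06. The 5 NF-kB proteins and inhibitors ranged from −0.16 to 0.67 with a median of 0.36, and the median of all measured genes was 0.10. Across genes the SD was 1.69 for the secreted factors, 0.30 for the NF-kB group and 0.90 for all measured genes. Within the secreted factors it was 2.38 for the 8 interleukins and colony-stimulating factors, which include Il33 at −5.04. For the 10 chemokines it was 0.96, close to that of all genes. Interleukins and colony-stimulating factors were called in 6 of 8 cases, 3 in each direction, against 18.6% of all genes, with Il33 and Il11 measured through 1 array alone and the calls of Il11, Il18 and Lif lost under the alternatives given above. The median of the secreted factors minus that of all genes was −0.16, and it was −0.39 to 0.12 over the alternatives, positive with quantile normalization (0.11) and loess (0.12). For the NF-kB group the same quantity was 0.26, with a range of 0.23 to 0.43. With 5 genes against 18 and 1 array per group, these figures describe the arrays, and the difference between the groups was not tested.

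**Figure D3:**
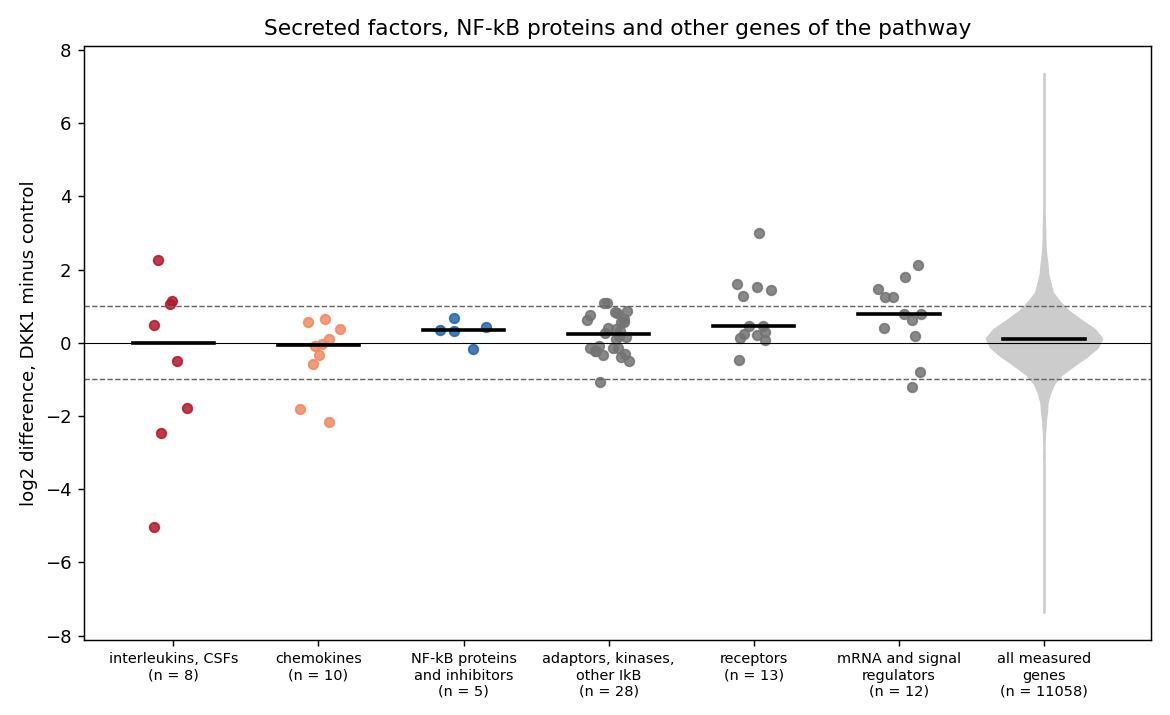
Log2 difference (DKK1 minus control) of each measured gene in the interleukin, chemokine and NF-kB protein groups and in 3 lists of other pathway genes, with the distribution over all 11058 measured genes on the right, bars at medians and dashed lines at 2-fold. The 5 NF-kB proteins lie within 2-fold, and the receptors and the regulators of cytokine mRNA and signalling have 5 points each above the upper line.

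Other genes of the pathway were examined as 3 lists. Of 26 cytokine and chemokine receptors 13 were measured, 5 were higher in DKK1 cells and 0 lower, against 11.7% and 6.91% of all genes, with a median of 0.45. Il6st, the gp130 subunit, was higher by 1.45 (SD 0.51 between 3 probe sets), with signals of 2726, 2492 and 129 in DKK1 cells and 676, 1261 and 38.9 in control cells, and its call ended with the brightest probe set alone (0.97). Lifr, its partner for LIF, had 800 in DKK1 cells and 318 in control cells (1.29), and that call ended without the filter (0.30) and with the filter on the higher signal (0.81). Il1r1, the signalling receptor for IL-1, had 797 in DKK1 cells and 249 in control cells, a difference of 1.62, which was 0.80 without the filter. Csf2rb, the shared beta chain for GM-CSF, IL-3 and IL-5, had 352 in DKK1 cells and 29.1 in control cells, a difference of 3.01 and at least 4.93-fold. Ackr3, a scavenging receptor for CXCL12, had 6069 in DKK1 cells and 2111 in control cells (1.52). Its name-marked shared probe set (_s_at) is its only one, so Ackr3 was not measured in the alternative without such probe sets. Csf2rb reached the filter through the DKK1 array alone, so for this gene too being measured and differing are linked. On poly-A scaling the other 4 of these genes fell under 2-fold (0.66 to 0.99).

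Adaptors, kinases and other IkB proteins of the NF-kB pathway had few calls on the deposited scaling. Of 28 measured, 1 was higher (Birc2, which encodes cIAP1, at 1.10) and 1 was lower (Nfkbib, which encodes IkB-beta, at −1.08), 7.14% against 18.6% of all genes, with a median of 0.23. Birc2 had 1440 in DKK1 cells and 662 in control cells, and Nfkbib 346 and 747 in the same order. The only measured Nfkbib probe set is marked as shared (_s_at), so Nfkbib was not measured in the alternative without such probe sets. The call of Birc2 ended with median centring (0.98) and poly-A scaling (0.47), and that of Nfkbib with the larger pseudocount (−0.98), without the filter (−0.65), with the filter on the higher signal (−0.65) and with hybridisation scaling (−0.72). On hybridisation scaling 7 of the list were higher and 0 lower, where 21.6% of all genes were higher and 3.62% lower. Ikbkb, a catalytic subunit of the IkB kinase, averaged 1.10 and was not called because its 3 measured probe sets went both ways (SD 1.31).

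Regulators of cytokine mRNA and signalling had 5 of 12 measured genes higher and 1 lower, against 11.7% and 6.91% of all genes, with a median of 0.79. Zfp36, which encodes tristetraprolin, a protein that binds AU-rich elements and speeds mRNA decay, had 1192 in DKK1 cells and 259 in control cells, a difference of 2.13. Its relative Zfp36l1 was higher by 1.24 (SD 0.07 between 2 probe sets). Dusp1, a phosphatase of p38 and JNK, had 3682 in DKK1 cells and 1038 in control cells (1.81). Both feedback inhibitors of JAK and STAT signalling that were called were higher, Socs3 by 1.48 (SD 0.21 between 3 probe sets) and Cish by 1.26. Fkbp5, a glucocorticoid-induced co-chaperone, was lower by 1.19 in DKK1 cells, with 430 in DKK1 cells and 1005 in control cells, and its call ended without the filter (−0.22) and on hybridisation scaling (−0.83). Zfp36 and Dusp1 kept their call under all 13 alternatives, and Zfp36l1, Socs3 and Cish lost theirs on poly-A scaling.

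**Figure D4:**
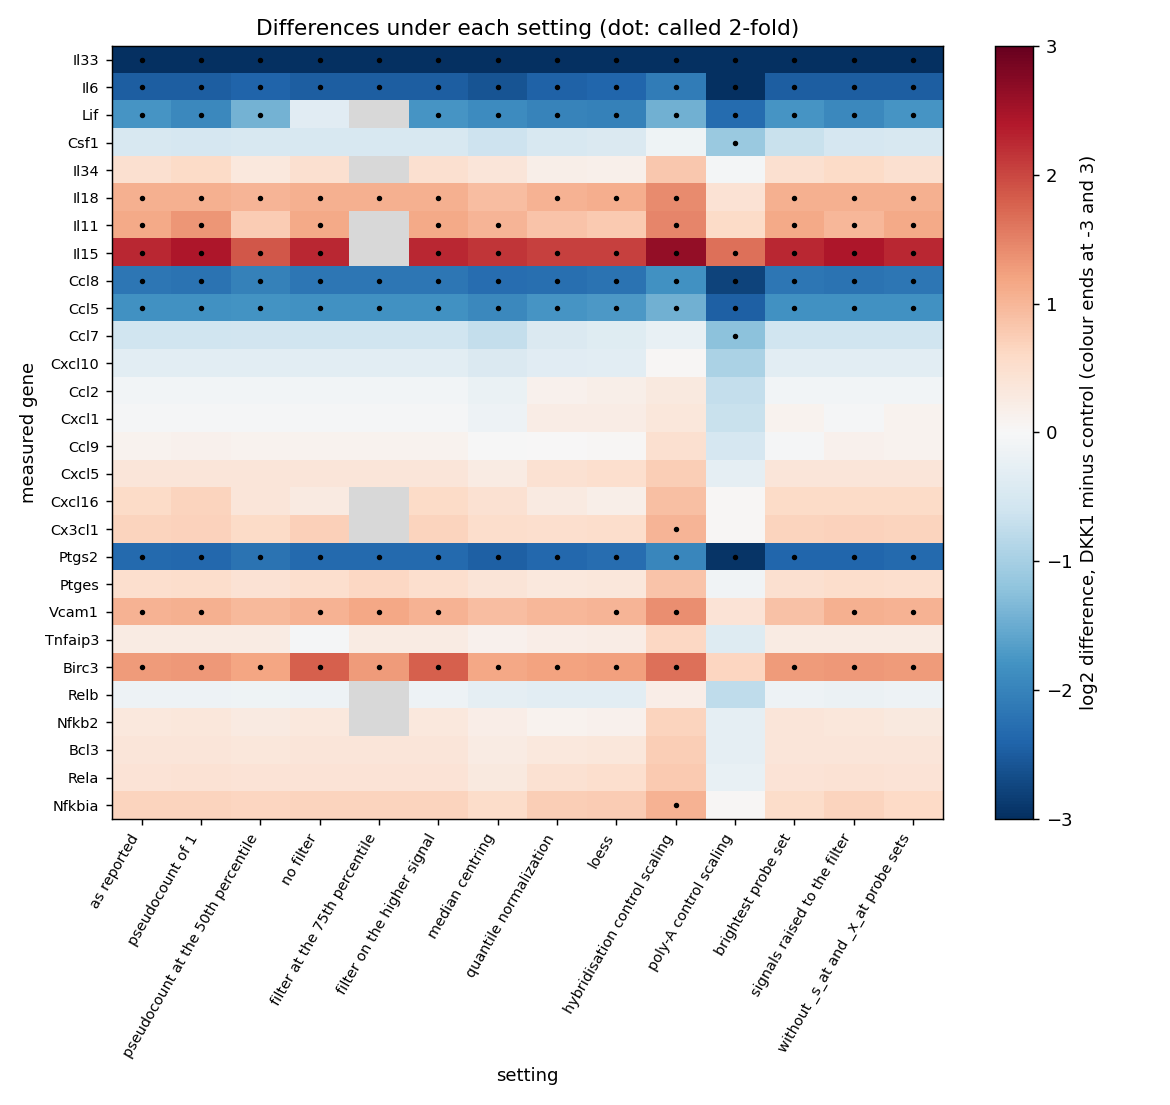
Log2 difference (DKK1 minus control) of the 28 measured genes as reported and under 13 alternative settings, with colour from −3 to 3, a dot where the gene was called 2-fold and grey where it was not measured. The rows of Il33, Il6, Ccl8, Ccl5 and Ptgs2 carry a dot in every column, and most changes of colour fall in the columns for the hybridisation and poly-A scalings.

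The arrays were also read for cells other than the labelled line. Of the osteoblast-lineage markers, 8 had a probe set and 6 were measured. The osteoblast regulator Sp7 had 117 in DKK1 cells and 87.0 in control cells, and the alkaline phosphatase gene Alpl had 182 and 147 in the same order. Col1a1, Col1a2 and Sparc had brighter probe sets, the brightest with 24640 in DKK1 cells and 31456 in control cells (Col1a2). Over their measured probe sets these genes averaged 0.79 (SD 1.05), 0.05 (SD 0.41) and 0.94 (SD 0.47) in that order. Of the 6 measured genes of the list, 5 lay above 0 and 1 below. Ibsp and Dmp1 were below the filter, and Spp1 and Bglap are not analysed here. The 1 called gene of this list was Phex, an endopeptidase gene of bone cells, with 1.97 in DKK1 cells and 200 in control cells (−3.54). It reached the filter through the control array alone, and was at least 2.80-fold lower with the dim signal raised to the filter. Its other probe set was dim on both arrays (4.43 in DKK1 cells and 2.42 in control cells). Of 13 macrophage and leukocyte markers, 5 were measured, and the summed signals of the list were 1714 in DKK1 cells and 1297 in control cells. The defining marker Ptprc had 5.89 and 4.24 in DKK1 cells and 2.11 and 11.7 in control cells. Cd14 had 521 in DKK1 cells and 370 in control cells (0.47), and Cd68 had 127 and 86.4 in the same order (0.48). Csf1r averaged 0.45 over its measured probe sets, while a probe set below the filter ran the other way (47.7 and 91.7). None of these was called. In this list Lyz2 was called higher (2.29) and Laptm5 lower (−1.10), each through a probe set that reached the filter on 1 array alone, with 136 in DKK1 cells and 14.5 in control cells for Lyz2 and 44.2 and 113 in the same order for Laptm5. Another, dim Laptm5 probe set ran the other way (53.4 and 14.1 in the same order). Of 6 endothelial markers 1 was measured, with summed signals of 201 in DKK1 cells and 219 in control cells, and of 6 epithelial markers 3, with 777 and 573 in the same order. The part of these signals in the cytokine values was not tested.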

How the data were processed

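Biotin-labelled cRNA from total RNA of 2 MOS-J samples was made with a 3' IVT kit of Affymetrix and measured on 1 array each, per the labels' protocols. The deposited table holds linear intensity, 1 signal for each of 45101 probe sets, made with MAS5 per the submitters' processing notes, whose version and options were not stated. MAS5 scales each array on its own, and with the top and bottom 2% trimmed the mean signal came to 500 for each, so a shift shared by all genes cannot be seen. The median signal was 78.6 in DKK1 and 62.6 in control cells.

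Of 34958 probe sets with 1 symbol, 34754 matched a RefSeq gene ID (GRCm38.p6, used for names and gene order). The pseudocount of 16.6 is the 25th percentile of all signals and moves dim differences towards 0. The number of arrays limits precision, and the pooled SD of 0.45 between probe sets of 1 gene covers agreement within arrays alone. The members, gene lists, calling rule and naming rule (every measured member and every called gene of the other pathway lists; Ikbkb and the cell type markers were named after their values were seen) were chosen with earlier results of these data known. The calculation was tested on simulated data with less noise than that SD, which checks the code and not the rate of false calls in these arrays. Python 3.11.15, pandas 2.3.3 and statsmodels 0.14.6 were used.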

Additional observations from a re-analysis of the deposited data

How the results depend on the processing

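Each result was recomputed under 12 alternatives of pseudocount, filter, scaling and probe set summary, and without probe sets whose names mark shared probes (ending in _s_at or _x_at), an alternative chosen after seeing the data. The count of higher genes among the members, 5 as reported, was 3 with the pseudocount at the 50th percentile, with the filter at the 75th percentile, with median centring and after quantile normalization, while poly-A scaling left 1. With poly-A scaling the median of the secreted factors was −0.70 and that of the NF-kB proteins and inhibitors −0.27; the cause is the scaling itself, which moved the median of all genes to −0.50, against 0.10 as deposited and 0.45 with hybridisation scaling. Higher genes made up 62.9% of all calls as deposited, 51.4% with median centring, 51.1% with quantile normalization, 51.4% with loess, 85.6% with hybridisation scaling and 16.6% with poly-A scaling. The count of lower members, 6 as reported, was 5 to 8 throughout. No called gene changed its direction. No paired analysis was possible because each group has 1 array, and leaving out a replicate was not possible for the same reason.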
